A study of Mus musculus with 15 samples.

Results

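The injury response of wild-type (WT) mice was set against that of miR-210 knockout (KO) mice. For each gene the response was the log2 fold change from sham to hypoxia-ischemia (HI) within 1 genotype, and the difference of responses was the KO response minus the WT response. A negative difference means that HI moved the gene less upward, or more downward, in KO. All 15 libraries of the study entered this comparison, and 14853 genes of the 17892 with values were tested.

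RNA was sequenced from cells isolated from mouse brain for PDGFRβ. The 4 groups were WT sham (3 libraries), KO sham (4 libraries), WT 24 h after neonatal HI (4 libraries) and KO 24 h after neonatal HI (4 libraries). KO mice lacked microRNA 210, and sham animals of each genotype served as the controls of that genotype. The labels give neither age, strain, pooling nor the number of animals behind a library, and they do not say whether a replicate is a separate mouse, so p-values here measure the spread between these libraries, which may be technical.

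PDGFRβ is the receptor for platelet-derived growth factor B, which endothelial cells release to recruit and hold pericytes on the capillary wall. Vascular smooth muscle cells and perivascular fibroblasts carry it too. HI in the newborn brain lowers oxygen and blood supply together, and the vessel wall answers with adhesion molecules, chemokines and matrix-degrading enzymes, while microglia and blood-derived cells gather around the vessel. miR-210 is the microRNA most regularly induced by hypoxia-inducible factors. It pairs through its seed with sites in messenger RNAs and lowers their stability or translation, and its known targets include iron-sulfur cluster and respiratory chain assembly genes. The 2 mature strands, from RefSeq (GRCm38.p6, minus strand), are shown because the 3p strand defines which transcripts could be its direct targets. Capitals mark the seed, bases 2 to 8 from the 5′ end.
mmu-miR-210-3p: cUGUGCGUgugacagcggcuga
mmu-miR-210-5p: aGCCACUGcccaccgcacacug
A target site for the 3p seed reads ACGCACA in the messenger RNA. The table's 1 line for Mir210 was blank throughout, and the knockout was therefore not checked here.

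Several libraries stood apart from others of their group. Gene differences, counts of called genes and list medians were also computed without them. Sign counts, counts of list members and the values for binding sites come from the main fit alone. Neuron markers averaged over 2.5 on the log2 scale of CPM (counts scaled to library size) in 5 libraries (WT sham 2, KO sham 1, KO sham 3, KO HI 2 and KO HI 3) and from -0.12 to 1.65 in the other 10. Leaving out the 5 neuron-high libraries was chosen after seeing the data. In WT HI library 2 the homeostatic microglia genes averaged 7.22 log2 CPM, against 5.84 to 5.98 in the other WT HI libraries. Genes with near copies elsewhere in the genome also split the WT HI libraries. Eno1b, looked at after its values were seen, had 3507 to 5431 counts in WT sham and 0 to 5 in all KO libraries, and 1008, 5335, 2619 and 1026 counts in WT HI 1, 2, 4 and 5. Morf4l1b had 954 to 1581 counts in WT sham, 267 to 387 in the KO libraries and 320, 869, 292 and 327 in WT HI 1, 2, 4 and 5. For both, WT HI 2 was the WT HI library nearest to WT sham. The cause of this split was not tested. Total counts were 15436376 to 18118697 per library.

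No gene passed the test for a difference of responses. The edgeR quasi-likelihood test, with p adjusted by Benjamini-Hochberg and a threshold of 0.05, called 0 of 14853 genes (0%), and the smallest adjusted p was 0.265. At an unadjusted p under 0.05 there were 768 genes, 5.17% of those tested, which is close to the share the threshold itself allows. Of these, 456 (3.07%) had a lower and 312 (2.1%) a higher response in KO. This split, 40.6% higher, was not stable. It was 714 higher and 537 lower without WT HI 2, 670 and 533 without KO HI 2, 415 and 380 without KO sham 4, 244 and 835 without KO HI 4, and 107 and 356 with the mean of homeostatic microglia genes as a covariate (the microglia covariate). limma-voom called 0 genes (0%), with 760 (5.12%) at an unadjusted p under 0.05. DESeq2 called 22 genes (0.148%), of which 21 (0.141%) were lower and 1 (0.00673%) higher in KO. limma-voom with sample quality weights called 2 genes (0.0135%), Gm2956 higher and Ccdc9b lower. Gm2956 had 0, 21, 0 and 0 counts in WT HI 1, 2, 4 and 5, and its edgeR difference was 2.79 ± 1.34 (SE). The sizes and directions given below are therefore estimates with their errors, and none of them is a call by the edgeR test. The data bounded many genes: the 95% interval of the difference lay within a 2-fold change either way for 7990 genes (53.8%), and the median standard error was 0.30.

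Genes called in one genotype mostly had a response of the same sign in the other. Over all 14853 genes the sign was shared by 10171 (68.5%). In WT 205 genes rose (1.38%) and 66 fell (0.444%), and in KO 725 rose (4.88%) and 316 fell (2.13%). Which genotype had more called genes depended on the setting. With sample quality weights 3691 genes were called in WT and 609 in KO. Without 1 WT sham library 48 to 57 were called in WT and 683 to 717 in KO. The WT and KO responses share no library. Of the 205 genes that rose in WT, 199 had a positive response in KO and 129 also rose there, with a median response of 1.93 in WT and 1.2 in KO. Of the 66 that fell in WT, 63 had a negative response in KO and 23 also fell, with medians of -1.12 and -0.63. The genes picked in KO had the larger median in KO instead. The 725 genes that rose in KO had a median response of 0.91 in KO and 0.51 in WT, with 712 positive in WT. The 316 that fell in KO had medians of -0.68 and -0.32, with 276 negative in WT. No gene rose in one genotype and fell in the other. Across all 14853 genes, which are not independent replicates, the 2 responses had a Pearson r of 0.63.

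Among the 456 genes with a lower response in KO at an unadjusted p under 0.05, 79 had positive responses in both genotypes, 324 had a positive response in WT and a negative one in KO, and 53 had negative responses in both. Among the 312 with a higher response in KO, 94 had positive responses in both, 182 a negative response in WT and a positive one in KO, and 36 negative responses in both. A changed sign of the response was thus the most frequent pattern in each direction, although for most of these genes neither response passed its own test. Picking genes by a large difference favours opposite signs when responses lie near 0. The median response of all genes was -0.01 in WT and -0.06 in KO, so this pattern is no result about these genes.

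**Figure D1:**
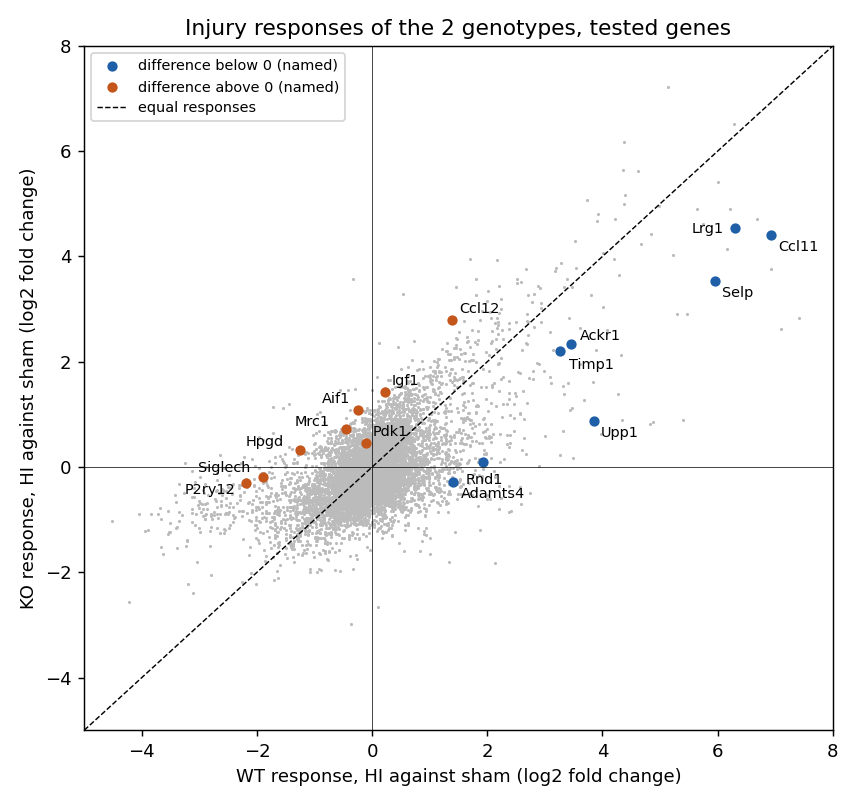
HI response in WT (x axis) and KO (y axis) as log2 fold changes against sham, 1 dot per tested gene, with 5 genes beyond the axes from -5 to 8. Named genes below the dashed line of equal responses, such as Upp1 (3.85 in WT, 0.87 in KO), had a lower response in KO, and those above it, such as Igf1 (0.22 and 1.43), a higher one.

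Genes with the smallest p among lower responses in KO included Upp1, Ackr1, Rnd1 and Lrg1. Upp1 (gene ID 22271), uridine phosphorylase, which breaks uridine down to uracil, had the smallest p of all. Its level was 1.2, 1.45 and 1.44 CPM in WT sham, 3.66, 3.97, 2.37 and 1.32 in KO sham, 20.2, 14.8, 20 and 23.9 in WT HI, and 4.75, 5.58, 6.6 and 3.69 in KO HI. Every WT HI library lay above every other library, whereas KO HI overlapped with KO sham. Upp1 rose in WT by 3.85 ± 0.37 log2 (SE; adjusted p = 0.000348), its KO response was 0.87 ± 0.30 (adjusted p = 0.104), and the difference was -2.98 ± 0.46 (adjusted p = 0.265; 95% interval -3.96 to -2.0). Without 1 library at a time the Upp1 difference stayed between -3.22 and -2.77, and DESeq2 gave an adjusted p of 9.21e-06.

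Ackr1 (gene ID 13349), the atypical chemokine receptor of venular endothelium that binds chemokines without signalling through G proteins, rose in both genotypes. Its level was 15.8, 20.2 and 17.6 CPM in WT sham and 12.3, 15.9, 18.2 and 13.2 in KO sham. After HI it was 220, 185, 177 and 198 CPM in WT and 77.0, 70.6, 84.5 and 70.5 in KO. The sham groups overlapped and the HI groups were far apart, with little spread within either. The responses were 3.45 ± 0.16 in WT (adjusted p = 1.77e-07) and 2.34 ± 0.14 in KO (adjusted p = 2e-06), a difference of -1.10 ± 0.19 (adjusted p = 0.485; DESeq2 adjusted p = 7.63e-05).

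Rnd1 (gene ID 223881), a small GTPase that loosens actin stress fibres and cell adhesion, passed the test of the response in WT and not in KO. It stood at 8.06, 6.76 and 7.19 CPM in WT sham, 12.1, 6.46, 9.78 and 6.47 in KO sham, 35.0, 21.2, 26.5 and 29.3 in WT HI and 9.61, 6.50, 11.3 and 9.72 in KO HI. The KO HI values lay within the range of the sham libraries. Rnd1 rose in WT by 1.93 ± 0.26 (adjusted p = 0.00316), its KO response was 0.09 ± 0.23, and the difference was -1.84 ± 0.34 (adjusted p = 0.625; DESeq2 adjusted p = 0.00212).

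Lrg1 (gene ID 76905), a secreted leucine-rich glycoprotein of activated vessels, was near 0 CPM before injury in both genotypes. Sham levels were 0.686, 0.894 and 0.885 CPM in WT and 0.512, 0.850, 0.637 and 0.877 in KO, and HI levels 59.1, 52.4, 74.2 and 77.0 in WT and 21.6, 10.1, 19.7 and 16.7 in KO. It rose in both genotypes, by 6.31 ± 0.32 in WT and 4.54 ± 0.27 in KO, a difference of -1.77 ± 0.37 (adjusted p = 0.704). For Ackr1, Rnd1 and Lrg1 the sham groups overlapped widely and KO minus WT was -0.26 ± 0.14, 0.25 ± 0.25 and -0.18 ± 0.30 in sham. Upp1 was higher in KO in 3 of 4 sham libraries (1.05 ± 0.34 in sham, adjusted p = 0.477, and -1.94 ± 0.30 after HI), so both its sham and its HI levels entered the difference.

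**Figure D2:**
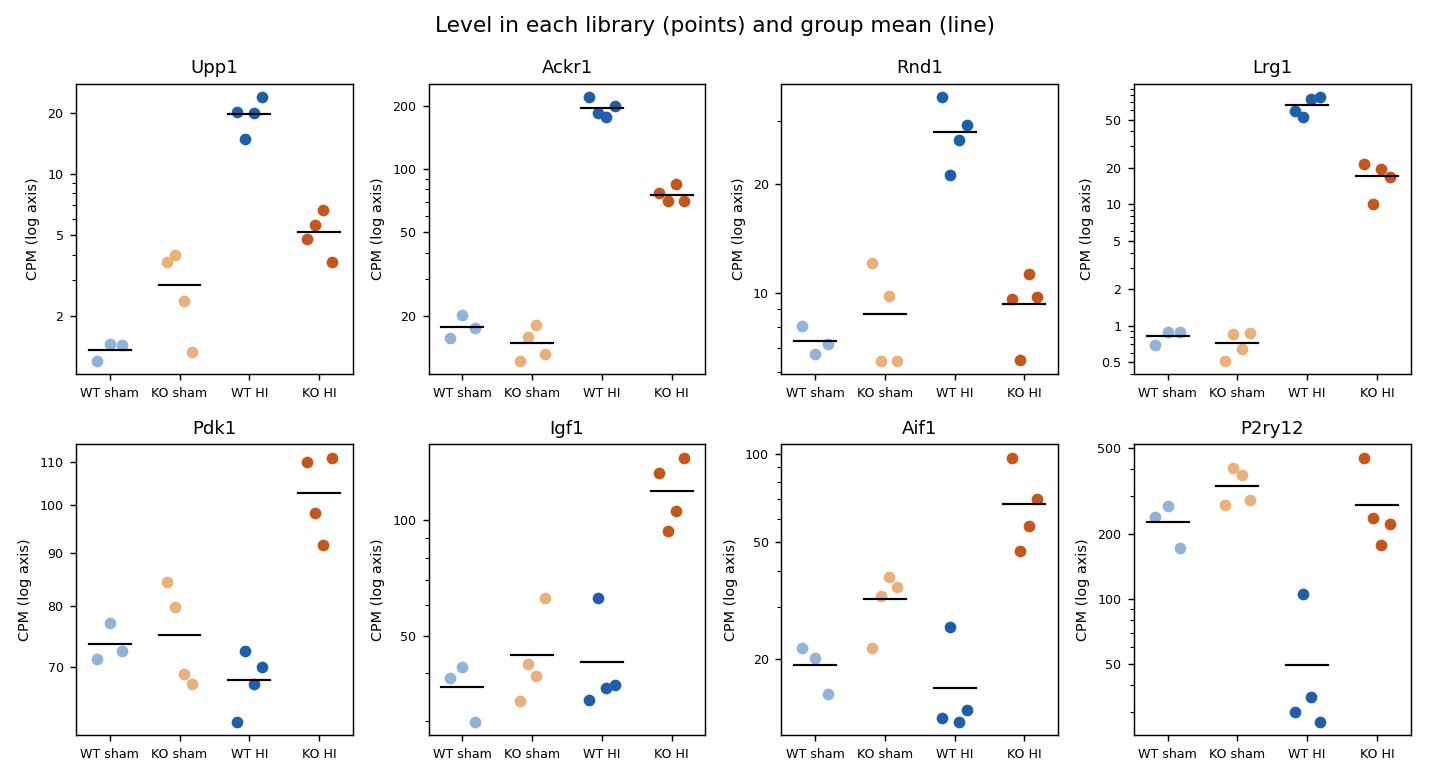
CPM on a log axis in each library (points) with the group mean (line) for 4 genes with a lower response in KO (upper row) and 4 with a higher one (lower row). For Upp1, Ackr1, Rnd1 and Lrg1 every WT HI library lay above every KO HI library, and for Pdk1, Igf1, Aif1 and P2ry12 every KO HI library lay above every WT HI library.

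Among the other genes with the smallest p for a lower response, Zfp423, a zinc finger transcription factor, differed by -0.69 ± 0.13 (adjusted p = 0.625), with responses of 0.22 in WT and -0.48 in KO, and it fell in KO (adjusted p = 0.0109). Slc45a4, a membrane transporter, rose in WT by 0.86 ± 0.14 and had a KO response of -0.04. Mapk11, the beta form of the stress kinase p38, rose in WT by 0.80 ± 0.16 and had a KO response of -0.13 ± 0.15. The remaining 8 of the 15 genes were Slc35e4, Cpne8, Cdc42ep4, Ypel2, Ccdc88c, Ccdc9b, Tmem176a and Tcea2, with differences from -1.39 (Ccdc9b) to -0.70 (Tmem176a). The 21 genes with a lower response that DESeq2 called were 14 of these 15 (all but Lrg1) and 7 others, among them Tmem44, Fkbp1a, Zfp57, Rin1, Acat3 and Synpo. Synpo, an actin-binding protein of contractile and spine cytoskeleton, differed by -1.43 ± 0.36, and Fkbp1a, the FK506-binding protein that also docks on TGF-beta receptors, by -0.42 ± 0.11. Acat3 differed by -4.01 ± 0.98, but it has a near copy, Acat2, from which the counting could have drawn reads. The 1 gene with a higher response that DESeq2 called was Agmo, the alkylglycerol monooxygenase of ether lipid breakdown. Agmo stood at 9.09, 10.2 and 8.35 CPM in WT sham, 8.93, 8.79, 7.70 and 9.92 in KO sham, 4.34, 4.90, 3.72 and 4.75 in WT HI and 9.72, 6.91, 7.26 and 8.83 in KO HI. It fell in WT by 1.05 on the log2 scale and had a KO response of -0.11 ± 0.15, a difference of 0.94 ± 0.23 (adjusted p = 0.76).

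Acute-phase and secreted vascular injury genes had a lower median response in KO. The list holds products that vessel and stromal cells release in inflammation, and the receptor Il1r1. Of 13 tested members 8 rose in WT and 7 in KO, against 1.38% and 4.88% of all genes. The median response was 2.94 in WT and 1.78 in KO, and the median difference was -0.66, with 11 members negative. Over all tested genes the median difference was -0.02. At an unadjusted p under 0.05, 3 of 13 were lower in KO, against 3.07% of all genes: Lrg1, Lcn2 and Il1r1. Lcn2, the siderophore-binding lipocalin, rose by 6.22 ± 0.53 in WT and 4.91 ± 0.44 in KO, a difference of -1.31 ± 0.59 (adjusted p = 0.932). With 1 library left out, the Lcn2 difference had an unadjusted p under 0.05 in 6 of 15 fits. Il1r1, the signalling receptor for interleukin-1, rose in WT by 1.15 ± 0.20 and had a KO response of 0.48 ± 0.18. It is also counted in the interleukin-1 and inflammasome list. Averaged over the list, WT HI libraries lay at 4.88 to 5.12 log2 CPM and KO HI libraries at 2.87 to 4.28, where KO HI 2 was the lowest, while the sham groups overlapped (1.62 to 1.87 in WT and 1.35 to 1.81 in KO).

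Leukocyte adhesion molecules, among them selectins and immunoglobulin-type receptors that blood cells grip on the vessel wall, gave a median difference of -0.56 over 12 members. Their median response was 0.03 in WT and -0.51 in KO. At an unadjusted p under 0.05, 3 of 12 were lower, against 3.07% of all genes: Ackr1, Selp and Jam2. The Jam2 responses were -0.31 in WT and -0.68 in KO. The list mean was already apart before injury, at 6.09 to 6.2 log2 CPM in WT sham and 4.99 to 6.05 in KO sham. Selp, P-selectin, stood at 1.2, 2.12 and 1.22 CPM in WT sham, 1.10, 2.27, 2.43 and 0.987 in KO sham, 81.1, 76.0, 105 and 114 in WT HI and 25.9, 4.20, 22.1 and 26.8 in KO HI. The sham groups overlapped, and each KO HI library lay below each WT HI library. Selp rose by 5.95 ± 0.64 in WT and 3.53 ± 0.51 in KO, a difference of -2.42 ± 0.72 (adjusted p = 0.834). Sele, E-selectin, rose by 5.23 ± 0.49 and 4.02 ± 0.43 (difference -1.22 ± 0.59, adjusted p = 0.932), and its level was already lower in KO sham than in WT sham, in every library.

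Endothelial markers were lower in the same libraries. Their mean over 18 genes was 9.07 to 9.31 log2 CPM for WT sham and 7.57 to 9.11 for KO sham. After HI it was 9.13 to 9.49 for WT and 7.47 to 8.47 for KO, with a median difference of -0.49, 16 of 18 members negative and 0 at an unadjusted p under 0.05. In bulk libraries such as these, fewer cells of a type and less RNA per cell cannot be told apart. With the endothelial mean as a covariate, chosen after seeing the data, the median difference was -0.12 for adhesion molecules and -0.23 for acute-phase genes. It was -0.01 for the endothelial list, which follows from the fit because the covariate is the mean of that list. The same fit left the leading genes about as large: Upp1 -3.20, Ackr1 -1.05, Rnd1 -1.95, Lrg1 -1.78 and Selp -2.34. Of the 90 genes followed through all settings it made 5 smaller by over 1.5 times, Adamts9 (-0.54), Id1 (-0.51), Pgf (-0.63), Mgp (-0.77) and Pdgfrb (-0.16). It called 6 genes for the difference, Upp1 among them (adjusted p = 0.022).

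Cytokine and chemokine genes did not move one way. Il6, the cytokine that drives acute-phase genes through STAT3, rose in WT by 3.31 ± 0.61 and had a KO response of 1.54 ± 0.53 (adjusted p = 0.102), a difference of -1.77 ± 0.77 (adjusted p = 0.932). The 15 genes of the interleukin-6 family and STAT3 feedback list had a median difference of -0.47, 11 of them negative. Of these 15 genes 5 were called higher in WT and 2 in KO, against 1.38% and 4.88% of all genes. Stat3 itself rose in WT by 0.76 ± 0.15, and its KO response was 0.37 ± 0.14. Ccl11, eotaxin, which stromal cells make and which attracts eosinophils, had 0.801, 0.279 and 1.16 CPM in WT sham, 0.293, 0.624, 0.926 and 0.329 in KO sham, 139, 75.9, 77.1 and 72.6 in WT HI and 19.3, 1.09, 19.0 and 7.99 in KO HI. It rose in both genotypes, with a difference of -2.51 ± 1.09 (adjusted p = 0.932). In contrast, 11 of 13 CC chemokines had a positive difference, with a median of 0.36 (0.05 with the microglia covariate). Among them Ccl12, a monocyte-attracting chemokine, rose in KO by 2.79 ± 0.38 against a WT response of 1.38 ± 0.40 (adjusted p = 0.107), a difference of 1.41 ± 0.52 (adjusted p = 0.932), or 0.57 with the microglia covariate. The 8 CXC chemokines had a median of 0.53 (-0.04 with that covariate) and none at an unadjusted p under 0.05, while the TNF and NF-kappaB feedback genes (median 0.01 over 18) and the interferon-stimulated genes (0.12 over 24) lay near the median of all genes.

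The inflammasome members Casp1, the protease that matures interleukin-1, and Pycard, its adaptor, rose in KO by 1.25 ± 0.33 and 1.99 ± 0.33. Their WT responses were 0.20 ± 0.36 and 1.13 ± 0.36. The differences were 1.05 ± 0.48 (adjusted p = 0.932) and 0.86 ± 0.48 (adjusted p = 0.933). With the microglia covariate they were 0.06 and -0.12, and the median of the 15 interleukin-1 and inflammasome genes went from 0.29 to -0.33. Complement genes had a median difference of 0.01 over 15 members. C1ra, the protease subunit of the first complement component, differed by -1.61 ± 0.49 (adjusted p = 0.834), with the caution that it has a near copy in the mouse genome.

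Matrix proteases and their inhibitors act on the basement membrane that pericytes share with endothelium. Of 24 tested members 5 were lower in KO at an unadjusted p under 0.05 and none higher, around a median of -0.12. Of all genes 3.07% were lower and 2.1% higher. Timp1, the secreted metalloproteinase inhibitor, stood at 5.09, 6.93 and 5.86 CPM in WT sham, 2.71, 3.91, 7.53 and 7.29 in KO sham, 61.1, 51.3, 51.0 and 67.2 in WT HI and 22.5, 20.7, 26.1 and 30.3 in KO HI. It rose in both genotypes, and every WT HI library exceeded every KO HI library. The difference was -1.06 ± 0.40 (adjusted p = 0.932), or -0.60 with a replicate block. Adamts4, an aggrecanase that pericytes and smooth muscle cells can make, stood at 51.8, 43.5 and 48.7 CPM in WT sham, 50.3, 30.2, 36.1 and 21.5 in KO sham, 178, 107, 112 and 112 in WT HI and 27.4, 14.2, 30.3 and 41.6 in KO HI. Its responses were 1.41 ± 0.34 (adjusted p = 0.055) and -0.28 ± 0.30, a difference of -1.69 ± 0.45 (adjusted p = 0.834), and Adamts9 differed by -0.97 ± 0.44 (-0.54 with the endothelial covariate and -0.51 with a replicate block). Mmp3, stromelysin 1, had 1, 0 and 0 counts in WT sham and 0 in each KO sham library, against 111 to 215 counts after HI for WT and 77 to 124 for KO, so no difference is given for it.

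Notch and TGF-beta signalling genes, which govern the mural cell state, had a median difference of -0.69 over 27 members, 21 of them negative. At an unadjusted p under 0.05, 6 were lower and 1 higher, against 3.07% and 2.1% of all genes. Id3, a target of BMP signalling, stood at 214, 208 and 212 CPM in WT sham, 138, 189, 238 and 198 in KO sham, 329, 219, 273 and 276 in WT HI and 136, 163, 145 and 156 in KO HI, a difference of -0.73 ± 0.22 (adjusted p = 0.834). Id1 differed by -0.84 ± 0.32 and Hey1, a Notch target, by -0.88 ± 0.28 (adjusted p = 0.834), and Hey1 fell in KO by 1.02 on the log2 scale (adjusted p = 0.0101) against a WT response of -0.14 ± 0.20. Among VEGF, angiopoietin and PDGF genes 21 of 23 had a negative difference (median -0.44) and 1, Pgf, placental growth factor, was below an unadjusted p of 0.05 (-0.96 ± 0.39). With the endothelial covariate these medians were -0.23 and -0.10.

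Smooth muscle contractile genes had the lowest median difference of the 39 lists, -0.85 over 17 members, 16 of them negative. In KO 6 of them fell and in WT none passed the test, where 2.13% of all genes fell in KO and 0.444% in WT. Their median responses were -1.05 in KO and -0.13 in WT. Acta2, smooth muscle alpha-actin, stood at 1080, 936 and 1170 CPM in WT sham, 665, 1040, 1730 and 719 in KO sham, 832, 500, 1130 and 1180 in WT HI and 312, 518, 291 and 503 in KO HI. The KO HI range overlapped with that of WT HI, whose lowest value was WT HI 2, and lay below KO sham. Acta2 fell in KO by 1.35 on the log2 scale (adjusted p = 0.0323), its WT response was -0.23 ± 0.36, and the difference was -1.13 ± 0.49 (adjusted p = 0.932). Cnn1, calponin, and Actg2, enteric smooth muscle actin, differed by -1.51 ± 0.59 and -1.56 ± 0.59. Mgp, the matrix protein that blocks vessel wall calcification, differed by -1.2 ± 0.49 within a fibroblast list of 15 genes with a median of -0.29.

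Markers of pericytes, the cells that carry most PDGFRβ on brain capillaries, were present in every library. Over 20 of them the median difference was -0.35, with 0 at an unadjusted p under 0.05. The mean level was 7.67 to 8.15 log2 CPM for WT sham and 5.98 to 7.73 for KO sham, and after HI 7.62 to 8.16 for WT and 5.93 to 7.55 for KO. The lowest values were those of KO sham 1 and KO HI 3, both with high neuron markers. Pdgfrb stood at 987, 688 and 906 CPM in WT sham, 251, 496, 785 and 533 in KO sham, 1050, 751, 960 and 940 in WT HI and 364, 272, 194 and 596 in KO HI, a difference of -0.64 ± 0.51 (adjusted p = 0.964; 95% interval -1.74 to 0.46). With the pericyte mean as a covariate, chosen after seeing the data, the smooth muscle median was -0.51 and the difference of Upp1 was -3.14.

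**Figure D3:**
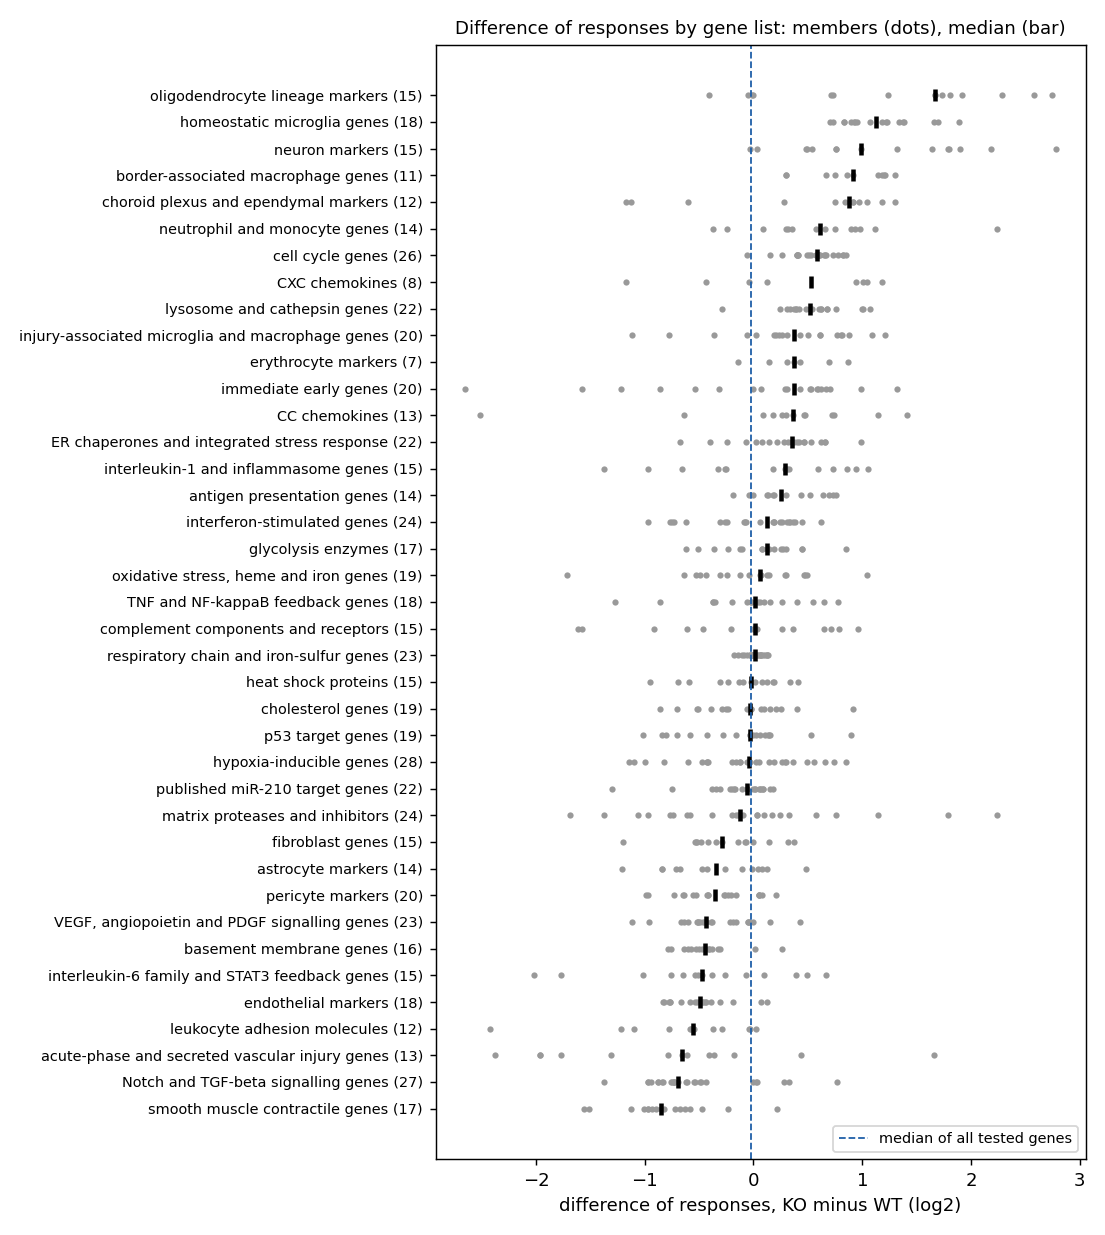
Difference of responses (log2, KO minus WT) of each tested member (dots) and the list median (bar) for 39 gene lists, with the number tested in parentheses and the median of all tested genes, -0.02, as a dashed line. Medians run from -0.85 for smooth muscle contractile genes to 1.67 for oligodendrocyte lineage markers, and members of most lists spread to both sides of 0.

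Genes with the smallest p among higher responses in KO included a metabolic kinase and genes known from microglia and macrophages. Pdk1 (gene ID 228026), pyruvate dehydrogenase kinase 1, which holds pyruvate back from the mitochondrial citric acid cycle and is a target of hypoxia-inducible factor, had the smallest p. It stood at 71.2, 77.1 and 72.6 CPM in WT sham, 84.5, 79.9, 69.0 and 67.4 in KO sham, 62.1, 72.5, 67.4 and 70.1 in WT HI and 110, 98.2, 91.6 and 111 in KO HI. Every KO HI library lay above all others, and the other 3 groups overlapped. Pdk1 rose in KO by 0.45 ± 0.09 (adjusted p = 0.0155), its WT response was -0.11 ± 0.10, and the difference was 0.56 ± 0.14 (adjusted p = 0.76). It kept a value of 0.51 to 0.76 under the other settings and 0.51 with the microglia covariate.

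Igf1 (gene ID 16000), insulin-like growth factor 1, which microglia and macrophages release after injury, stood at 38.8, 41.4 and 29.8 CPM in WT sham, 33.7, 42.1, 39.3 and 62.8 in KO sham, 34.0, 62.8, 36.6 and 37.1 in WT HI and 133, 93.7, 106 and 146 in KO HI. Igf1 rose in KO by 1.43 ± 0.24 (adjusted p = 0.0061) against a WT response of 0.22 ± 0.26, a difference of 1.21 ± 0.35 (adjusted p = 0.834). Hpgd, the dehydrogenase that inactivates prostaglandins, stood at 13.8, 14.6 and 11.2 CPM in WT sham, 19.0, 23.5, 25.4 and 24.2 in KO sham, 4.74, 9.24, 3.16 and 4.92 in WT HI and 39.4, 23.5, 22.8 and 29.8 in KO HI. Here the genotypes were apart before injury too. Hpgd fell in WT by 1.26 on the log2 scale (adjusted p = 0.0499), its KO response was 0.33 ± 0.27, and the difference was 1.58 ± 0.40 (adjusted p = 0.834). The other genes of the 15 with the smallest p were Naa20, Spg21, Hprt, Atp6ap2, Otud1, Lrp12, Glmn, Gpr155, Morf4l1b, Asah1, Nup210 and Aif1, with differences from 0.43 (Spg21) to 1.43 (Morf4l1b). Hprt, the purine salvage enzyme, differed by 0.68 ± 0.19. Atp6ap2, an accessory protein of the vacuolar proton pump, and Asah1, lysosomal acid ceramidase, rose in KO by 0.88 ± 0.15 and 0.78 ± 0.17, with WT responses of 0.07 and -0.05.

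Homeostatic microglia genes had median responses of opposite sign in the 2 genotypes. Of 18 tested members 2 fell in WT and 4 rose in KO, where 0.444% of all genes fell in WT and 4.88% rose in KO. The median response was -0.53 in WT and 0.58 in KO, and all 18 had a positive difference, with a median of 1.13. At an unadjusted p under 0.05, 9 of 18 were higher in KO, against 2.1% of all genes. P2ry12 (gene ID 70839), the purinergic receptor that steers the processes of resting microglia, stood at 240, 268 and 172 CPM in WT sham, 273, 403, 374 and 288 in KO sham, 30.1, 106, 35.3 and 27.2 in WT HI and 450, 237, 178 and 222 in KO HI. It fell in WT by 2.19 on the log2 scale (adjusted p = 0.0265) and had a KO response of -0.30 ± 0.41, a difference of 1.89 ± 0.61 (adjusted p = 0.834). Siglech, a sialic acid-binding receptor of microglia, gave 1.70 ± 0.57 (adjusted p = 0.85). For P2ry12 and Siglech every KO sham library already lay above every WT sham library. Aif1, which encodes IBA1, stood at 21.8, 20.1 and 15.2 CPM in WT sham, 21.7, 32.8, 38.1 and 35.1 in KO sham, 12.6, 25.6, 12.2 and 13.4 in WT HI and 97.2, 46.6, 56.6 and 70.1 in KO HI, a difference of 1.34 ± 0.41 (adjusted p = 0.834). In each of these 3 genes WT HI 2 was the highest WT HI library, and without it the differences were 2.58, 2.34 and 1.66.

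Border-associated macrophage genes, which mark the macrophages of the perivascular space, also had a positive difference in all 11 tested members (median 0.91). Mrc1, the mannose receptor, stood at 263, 275 and 153 CPM in WT sham, 231, 319, 282 and 192 in KO sham, 137, 194, 172 and 168 in WT HI and 419, 315, 261 and 692 in KO HI, a difference of 1.18 ± 0.42 (adjusted p = 0.932), and Pf4 gave 1.2 ± 0.47. Genes that microglia and macrophages switch on after injury rose in both genotypes in part. Of 20 tested members 10 rose in WT and 15 in KO, against 1.38% and 4.88% of all genes, and the median difference was 0.37. Lilrb4a, Adam8, Msr1, Lilr4b and Cd63, all among the 10 smallest p-values of the KO response, rose by 0.77 (Cd63) to 4.38 (Lilr4b) in WT and by 1.08 to 5.0 in KO, and Lilrb4a and Lilr4b are near copies of each other. Their differences were 0.31 to 0.88, each with a 95% interval that included 0.

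Lysosome and cathepsin genes, whose products digest what macrophages take up, had 1 member called higher in WT and 14 in KO among 22 tested, where 1.38% of all genes were called higher in WT and 4.88% in KO. The median response was 0.53 in WT and 1.10 in KO, and the median difference was 0.52. Of 22 differences 21 were positive, 4 of them at an unadjusted p under 0.05, against 2.1% of all genes. Psap, the precursor of the saposins that help lipid breakdown, stood at 1620, 1630 and 1740 CPM in WT sham, 1890, 2270, 2100 and 2140 in KO sham, 1490, 1940, 1380 and 1460 in WT HI and 3140, 3190, 2550 and 2470 in KO HI, a difference of 0.52 ± 0.20 (adjusted p = 0.932). Npc2, the lysosomal cholesterol carrier, differed by 0.42 ± 0.17. The KO sham levels of Psap and Npc2 were already above all WT sham levels. Among antigen presentation genes (median 0.25 over 14) B2m, the light chain of class I molecules, differed by 0.64 ± 0.28.

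Genes of protein folding and of cell division also had mostly positive differences. Of 22 endoplasmic reticulum (ER) chaperone and integrated stress response genes 1 rose in WT and 9 in KO, against 1.38% and 4.88% of all genes. Positive differences numbered 18 (median 0.35), 4 of them at an unadjusted p under 0.05, against 2.1% of all genes. Hspa5, the ER chaperone BiP, stood at 871, 795 and 772 CPM in WT sham, 518, 891, 810 and 683 in KO sham, 886, 1250, 976 and 942 in WT HI and 1900, 1140, 1160 and 1530 in KO HI. Its HI groups overlapped. Hspa5 rose in KO by 0.98 ± 0.20 (adjusted p = 0.0132) against a WT response of 0.32 ± 0.21, a difference of 0.66 ± 0.29 (adjusted p = 0.932), and Manf and Calr, both ER-resident, differed by 0.62 ± 0.21 and 0.46 ± 0.20. Of 26 cell cycle genes 3 fell in WT and none passed in KO, where 0.444% and 2.13% of all genes fell. Their differences were positive for 25 (median 0.58). Pcna, the sliding clamp of DNA polymerase, Rrm2, a subunit of ribonucleotide reductase, and Bub1, a spindle checkpoint kinase, differed by 0.60 ± 0.23, 0.67 ± 0.27 and 0.82 ± 0.37.

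The level of microglia markers moved with these lists. The homeostatic microglia mean was 6.65 to 7.19 log2 CPM for WT sham and 7.23 to 8.03 for KO sham. After HI it was 5.84 to 7.22 for WT and 7.91 to 9.0 for KO. The genotypes were thus apart both before and after injury. A gene whose level follows this mean therefore gets a smaller positive difference once the mean is a covariate. More microglia and more RNA per cell cannot be told apart by such a fit. With that mean as a covariate, the median difference was -0.21 for injury-associated, -0.07 for lysosome, 0.04 for ER and -0.10 for cell cycle genes. It was 0.73 for border-associated macrophage genes. The homeostatic list gave -0.04, a value near 0 that follows from the fit because the covariate is its own mean. Igf1 then gave 0.57, Psap 0.26, Hspa5 0.09 and Pcna 0.11. Aif1 (0.38) and P2ry12 (0.64) are themselves part of the covariate, so their smaller values say little. The lower responses were as large or larger in the same fit for acute-phase genes (-1.15), adhesion molecules (-0.85) and Lrg1 (-1.87), and smaller for smooth muscle genes (-0.60), Upp1 (-2.43), Acta2 (-0.65), Cnn1 (-0.50), Actg2 (-0.61), Phlda3 (-0.40) and Nr4a2 (-0.62). Of the 90 genes followed through all settings, 33 of 42 with a higher and 6 of 48 with a lower response in KO became smaller by over 1.5 times or turned sign with this covariate. Aif1, P2ry12 and Siglech, members of the covariate list, are among the 33.

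**Figure D4:**
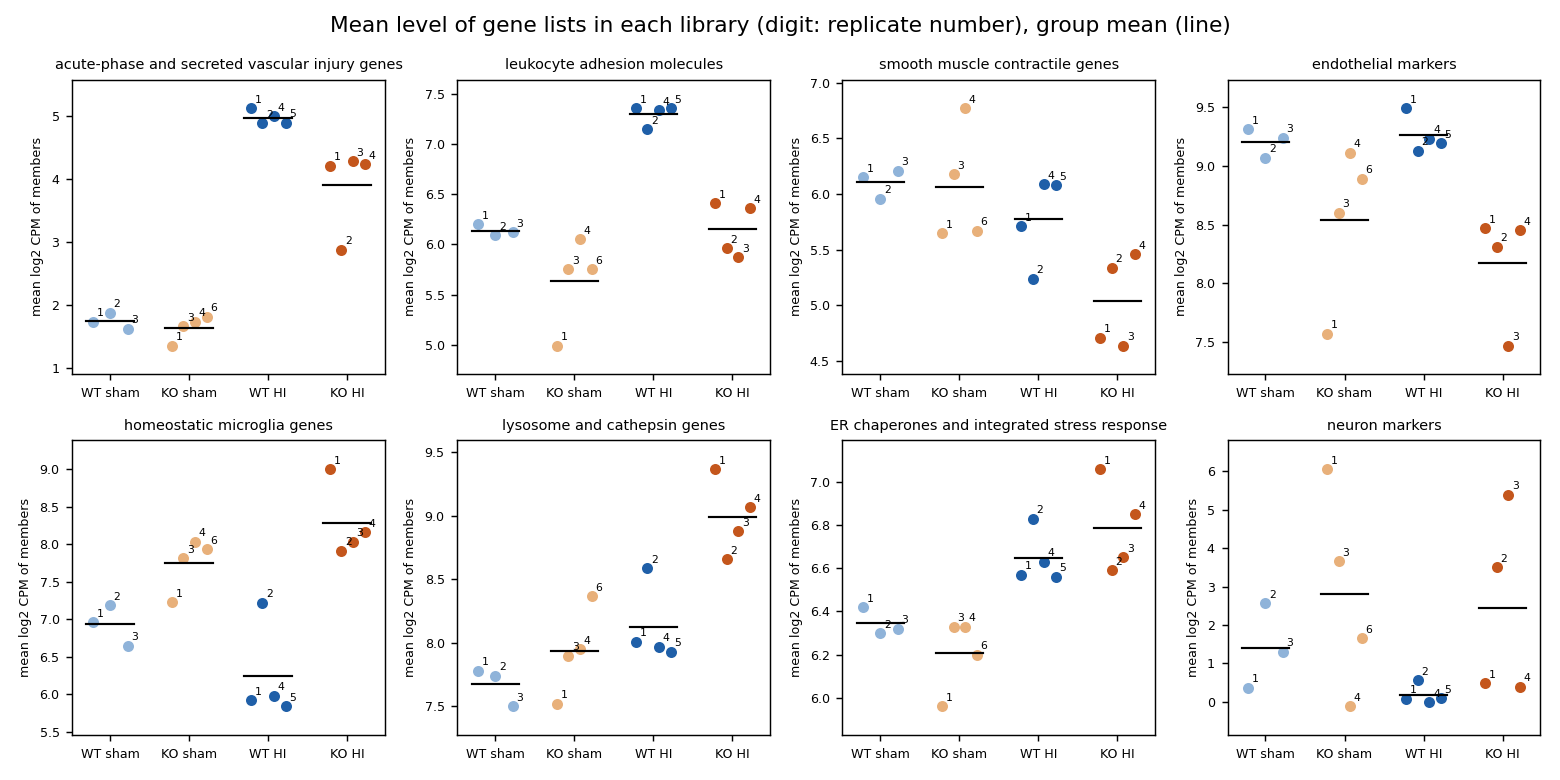
Mean log2 CPM of 8 gene lists in each library (points, with the replicate number) and the group mean (line). The acute-phase and adhesion means of all KO HI libraries lie below all WT HI libraries, the microglia and lysosome means lie above them, and neuron markers are high in WT sham 2, KO sham 1, KO sham 3, KO HI 2 and KO HI 3. The adhesion and microglia means of the sham groups are apart in the same directions.

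Hypoxia-inducible genes had a median difference close to that of all genes. Over 28 members the median difference was -0.04, with 2 higher and 1 lower at an unadjusted p under 0.05, against 2.1% and 3.07% of all genes. Those 3 were Pdk1, P4ha1 and Ddit4. P4ha1, a collagen prolyl hydroxylase subunit, stood at 74.9, 70.1 and 70.8 CPM in WT sham, 67.3, 88.4, 75.7 and 69.8 in KO sham, 63.8, 88.7, 76.1 and 78.4 in WT HI and 155, 107, 104 and 142 in KO HI, a difference of 0.66 ± 0.21 (adjusted p = 0.834), or 0.32 with the microglia covariate. Ddit4, which restrains the growth kinase complex mTORC1 under stress, went the other way. It stood at 32.5, 44.9 and 35.6 CPM in WT sham, 36.2, 33.3, 46.4 and 40.0 in KO sham, 93.1, 60.6, 59.4 and 66.2 in WT HI and 26.3, 30.7, 42.8 and 34.8 in KO HI. Ddit4 rose in WT by 0.89 ± 0.20 (adjusted p = 0.0431) and had a KO response of -0.21 ± 0.18, a difference of -1.10 ± 0.27 (adjusted p = 0.76). Glycolysis enzymes had a median of 0.12 over 17, where Pkm, muscle-type pyruvate kinase, gave 0.45 ± 0.18.

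Most other stress groups lay near the median of all genes. The 23 respiratory chain and iron-sulfur genes had a median difference of 0.01 and 0 members at an unadjusted p under 0.05. The heat shock proteins stood at -0.02 over 15, the oxidative stress, heme and iron genes at 0.06 over 19, and the cholesterol genes at -0.03 over 19, where the cholesterol exporter Abcg1 gave 0.91 ± 0.39. The p53 target genes had a median of -0.03 over 19, with Phlda3, an inhibitor of AKT, and Fas, a death receptor, lower at an unadjusted p under 0.05. Phlda3 stood at 13.4, 15.8 and 17.3 CPM in WT sham, 15.2, 17.6, 11.1 and 11.2 in KO sham, 41.3, 27.2, 43.0 and 46.1 in WT HI and 12.8, 18.4, 16.5 and 21.1 in KO HI. It rose in WT by 1.34 ± 0.23 (adjusted p = 0.0105) with a KO response of 0.32 ± 0.21, a difference of -1.02 ± 0.30 (adjusted p = 0.834). Fas differed by -0.84 ± 0.36. Immediate early genes had a median of 0.37 over 20, with 14 positive, and -0.25 with the microglia covariate. At an unadjusted p under 0.05, 0 of them were higher and 2 lower, against 2.1% and 3.07% of all genes. Among the 2 was Nr4a2, an orphan nuclear receptor, at -1.22 ± 0.44.

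Genes with a possible binding site for miR-210-3p had a median difference close to that of genes without one. The site ACGCACA was searched on the sense strand of annotated 3′ untranslated regions (GENCODE M21, GRCm38). It was present in 570 of 14496 tested genes with such a region (3.93%). Their median difference was -0.03, against -0.02 for the 13926 genes without a match, and 2.98% of them had an unadjusted p under 0.05 (7 higher and 10 lower), against 5.24%. The 70 genes whose match was followed by A had a median of -0.01. The 22 published miR-210 target genes had a median of -0.06, with 0 at an unadjusted p under 0.05. Among the 15 leading genes with a higher response in KO, 2 held a match, Pdk1 and Igf1, and among the 15 leading with a lower response 0 did. Their sites are printed below with those of the other genes under the naming rule that held a match, to show the letters around it. Capitals mark the match, Lhfp held 2 of which the first is shown, and for Pdk1 it begins at the first base after the stop codon.
Pdk1: ACGCACAtggg
Igf1: ggaatctggattacaACGCACAtttt
Pycard: gccaatttcttaatgACGCACAaatc
Cxcl10: aactggagtgaagccACGCACAcacc
Hif3a: gccgcacacaggcacACGCACAgccc
Lhfp: atatgcacaggtcatACGCACAtgcc
Olig2: tctccccccacacacACGCACAcaca
The difference was 0.86 ± 0.48 for Pycard, 1.01 ± 0.62 for Cxcl10, an interferon-inducible chemokine, and 1.92 ± 1.92 for Olig2, an oligodendrocyte lineage factor. It was -0.75 ± 0.42 for Hif3a, an inhibitory hypoxia-inducible factor subunit, and -0.65 ± 0.41 for Lhfp, a pericyte marker. The 95% interval included 0 for each of these. A match is a description of these letters and not evidence of binding.

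Markers of neural and blood cells gave differences too uncertain to read. The median difference was 0.99 for neuron, 1.67 for oligodendrocyte lineage, 0.88 for choroid plexus and ependymal, 0.37 for erythrocyte and -0.34 for astrocyte markers, with 0 members of any of these lists at an unadjusted p under 0.05. The neuron mean ranged from -0.12 to 6.06 log2 CPM among the 4 KO sham libraries alone. When those 5 neuron-rich libraries were left out, 2 libraries remained per group, and 4 in WT HI, and the neuron median was 0.05 and the oligodendrocyte median 0.43. In that fit the medians were 1.02 for homeostatic microglia, -0.72 for acute-phase and -0.85 for smooth muscle genes, and the differences were -2.72 for Upp1, -1.33 for Ackr1, -1.64 for Rnd1, -1.74 for Lrg1, 0.76 for Pdk1 and 1.12 for Igf1, with 0 genes called and 2325 at an unadjusted p under 0.05.

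**Figure D5:**
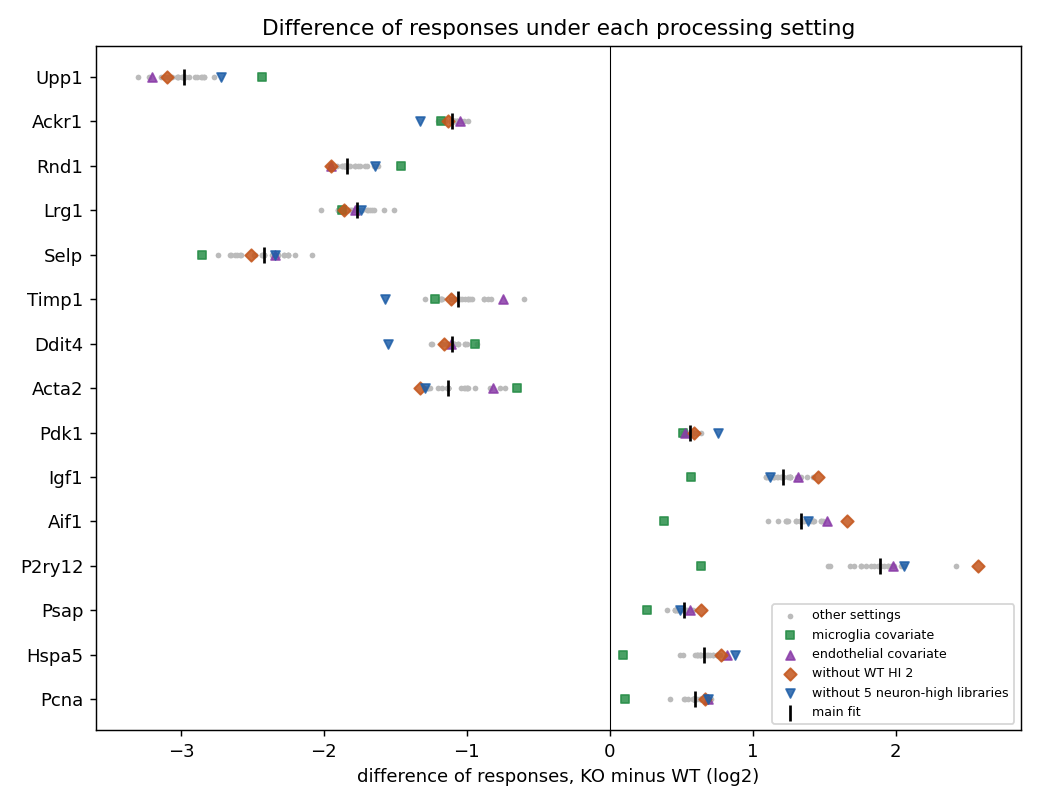
Difference of responses (log2, KO minus WT) of 15 named genes as reported (black bar) and under every other setting (grey dots), with 4 settings in colour. Upp1 stays between -3.30 and -2.43 and Pdk1 between 0.51 and 0.76, whereas Igf1, Aif1, P2ry12, Psap, Hspa5 and Pcna move towards 0 with the microglia covariate. Aif1 and P2ry12 are members of the list that makes up this covariate.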

How the data were processed

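The deposited values are expected counts, 1 column per library, without normalization. This unit was inferred, as 3.12% to 3.92% of values in a library had decimals and RSEM is among the tools. HISAT2 2.1.0, Bowtie2 2.4.4, Bowtie, RSEM 1.3.1, DESeq2 1.4.5 and the build mm39 are listed per the submitters' processing notes, with no role or order, and the sources used here do not state strandedness. The deposited table had 65535 lines, of which 17892 carried values and 47643 were blank in all 15 libraries. A blank line was not read as 0. Of the lines with values 17862 matched a gene symbol by gene ID.

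Expected counts were rounded and filtered with filterByExpr, and 14853 genes were fitted with edgeR 4.0.16 (TMM, glmQLFit, glmQLFTest; R 4.3.3) as 4 group means over all 15 libraries without covariates. The biological coefficient of variation was 38.6%. P-values were adjusted over all tested genes by Benjamini-Hochberg, and a call is an adjusted p under 0.05. CPM values use TMM-scaled library sizes. Standard errors and 95% intervals come from the quasi-likelihood fit. DESeq2 1.42.0 and limma-voom (limma 3.58.1) were run beside it, with other normalizations, filters, covariates and each library left out. The scripts were tested on simulated data.

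The genes described here and the 39 gene lists were chosen with earlier results of these data known, so lists are given by counts and medians with no p. Named are the 15 genes with the smallest p in each direction (at least 10 CPM in 1 group, no provisional symbols), genes called by any of the tools (up to 25), the 10 smallest p-values of each genotype's response, up to 4 members of each list, Mir210 and Pdgfrb. Within that rule only some were printed, and a few genes are not reported here. No coordinates are given because the reference (GRCm38) differs from the build of the table.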

Additional observations from a re-analysis of the deposited data

Results flagged for a closer look

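In groups of 4 libraries, a library was marked when its gap to the nearest other exceeded Dixon's 95% limit as a share of the group's range, which chance gives for about 1 in 20 groups. Of 387 groups examined over 90 genes and 39 lists, 42 were marked, 21 of them for WT HI 2. In WT HI 2 the following levels stood apart from WT HI 1, 4 and 5. Lower than in the others were Il1r1 (154 CPM), Slc45a4 (117), Synpo (127), Tmem176a (57.2) and Pgf (17.9), and the list means of adhesion molecules (7.15 log2 CPM) and basement membrane genes (9.6). Higher were Atp6ap2 (144 CPM), Igf1 (62.8), Morf4l1b (49.5), Asah1 (160), Aif1 (25.6), Gm2956 (1.2), P2ry12 (106), Siglech (41.4), Casp1 (8.72), Pycard (39.2), Lilrb4a (105) and Adam8 (47.8), and the list means of homeostatic microglia (7.22) and lysosome genes (8.59). Most of these higher values are for genes of microglia and macrophages, and what set this library apart was not tested.

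In WT HI 1 the marked levels were Adamts4 (178 CPM), Ccl11 (139), Fas (8.97), Cdc42ep4 (229) and Rrm2 (35.1). In KO HI 2 they were Sele (2.24 CPM), Lcn2 (16.9), Morf4l1b (22.3), Lilrb4a (38.7) and Adam8 (17.0), with the list means of acute-phase genes (2.87 log2 CPM) and injury-associated microglia genes (6.31). In KO HI 1 Siglech (181 CPM), Bub1 (38.7) and the mean of cell cycle genes (5.99 log2 CPM) were marked, in KO HI 3 the endothelial mean (7.47) and in KO HI 4 Synpo (93.1 CPM). Among KO sham libraries, library 1 was marked for Acat3 (6.66 CPM) and Calr (741), library 3 for Atp6ap2 (144) and library 6 for the mean of injury-associated microglia genes (5.17 log2 CPM).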

How the results depend on the processing

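The count of genes called for the difference of responses was 0 by edgeR and 22 with DESeq2, 2 with sample quality weights, 1 with the neuron covariate, 6 with the endothelial and 4 with the pericyte covariate (both chosen after seeing the data). Leaving out the 5 neuron-high libraries, likewise chosen after seeing the data, gave 0 calls. Without 1 library the count was 0 to 2: 1 without KO sham 6 (Upp1) and 2 without WT HI 2 (Gm2956 and Morf4l1b). In the latter fit Gm2956 had 0 counts in every remaining WT HI library. Genes at an unadjusted p under 0.05 numbered 768, and 2163 with quality weights, 463 with the microglia covariate, 2325 with the neuron covariate and 2325 without the 5 neuron-high libraries, 3011 and 2054 with the endothelial and pericyte covariates, and 442 (without WT sham 2) to 1559 (without KO sham 1) with 1 library left out. Also moved by over 1.5 times were the counts without WT sham 1 (458), WT HI 1 (474), WT HI 2 (1251), WT HI 5 (473), KO HI 1 (495) and KO HI 2 (1203). The 271 genes called in WT were 782 with DESeq2, 3691 with quality weights, 694, 1407, 1035 and 970 with the microglia, neuron, endothelial and pericyte covariates, 750 without the neuron-high libraries, and 48 (without WT sham 1) to 554 (without KO sham 1) with 1 library left out. The 1041 called in KO were, in the same order, 1932, 609, 599, 2895, 4326, 3719 and 2458, and 355 (without KO HI 1) to 1927 (without KO sham 1). Whether replicate numbers pair the libraries was not settled. Same-numbered libraries had correlations of -0.78 to 0.79, with a median of 0.26 and 10 of 15 pairs over 0.1. Other pairs between groups had -0.76 to 0.9, with a median of -0.09 and 24 of 69 over 0.1. Of 13 libraries with a same-numbered library in another group, 4 correlated best with their own number. With a replicate block 0 genes were called for the difference (286 at an unadjusted p under 0.05), 16 in WT and 73 in KO. Of 2520 values of 90 named genes under these settings 8 turned sign: with the microglia covariate Cxcl10 (-0.06), Pycard (-0.12), Lilrb4a (-0.23), Adam8 (-0.06), Msr1 (-0.33), Lilr4b (-0.09) and Lrrc49 (0.01), and with the replicate block Lrrc49 (0.03). Smaller by over 1.5 times were also Acta2 (-0.73), Actg2 (-0.96), Pgf (-0.58) and Pdgfrb (-0.28) with the replicate block, Sele (-0.54) and Adamts4 (-1.09) without the neuron-high libraries, Mgp (-0.79) and Pdgfrb (-0.36) without KO sham 4, Bub1 (0.51) without KO HI 1 and Hif3a (-0.47) without WT HI 1. The causes were not tested. A difference of 4 group means carries the error of all 4. The main fit used no sample weights. limma-voom with sample quality weights gave the libraries weights of 0.127 to 1.03 in KO and 0.85 to 4.15 in WT.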
